A study of Mus musculus with 3 samples.

Results

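The genes of mitochondrial calcium uptake and exchange were examined in RNAseq of the incisor enamel organ, the epithelium that holds the enamel-forming ameloblasts. They were the 9 rows of the raw count table named Mcu, Smdt1, Mcur1, Micu2, Micu3, Letm1, Vdac1, Vdac2 and Vdac3, of 20937 gene symbols in all, and all 9 had enough counts to be tested. The 3 libraries came from mice 4 weeks old, stated in the methods to be male, with 1 library per genotype and no replicate, so how much mice of the same genotype vary cannot be estimated. The Stim1 cKO library was Stim1 fl/fl with the AmelX-iCre transgene, the Stim1 HT library was Stim1 fl/wt with the same transgene, and the Stim1 Ctrl library was Stim1 fl/fl without Cre. The control libraries thus share floxed Stim1 alleles with Stim1 cKO, and Stim1 HT shares the transgene as well. The amelogenin promoter drives this Cre in ameloblasts from the secretory stage, whereas RNA was taken from the whole enamel organ, so transcripts of other cells were counted too.

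Calcium released from the endoplasmic reticulum crosses the outer mitochondrial membrane through VDAC channels and enters the matrix through the uniporter, a channel of the inner membrane. The pore of the uniporter is MCU, EMRE (encoded by Smdt1) is needed for its conductance in animal cells, and the MICU proteins sense cytosolic calcium through EF hands and gate the pore. In the matrix, calcium raises the activity of dehydrogenases that feed the respiratory chain. STIM1 is the endoplasmic reticulum calcium sensor of store-operated calcium entry, the pathway that refills these stores.

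Total counts were between 20216507 and 28265960. Levels are given as CPM, the reads of a gene per 1000000 counted, with library sizes adjusted by edgeR's TMM factors. The detection floor of 3 counts was at most 0.152 CPM. Stim1 itself had 72.8 CPM in Stim1 cKO against 129 CPM (Stim1 HT) and 186 CPM (Stim1 Ctrl).

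The library labelled Stim1 cKO did not match a source of male mice alone. Xist, the RNA made from the inactive X chromosome of females, had 10897 counts in it against 36 (Stim1 HT) and 1 (Stim1 Ctrl). The Y-linked genes Ddx3y, Eif2s3y, Kdm5d and Uty were counted in the same library too, at 991, 798, 281 and 296 counts, below their counts in either control. Xist and Y-linked transcripts were thus found together in the library labelled Stim1 cKO. It is the one library of its genotype, so no result could be given without it, and sex and genotype cannot be told apart.

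The libraries also differed in markers of other tissues. The 21 skeletal muscle markers summed to 7674 CPM in Stim1 cKO against 33608 CPM (Stim1 HT) and 42356 CPM (Stim1 Ctrl), and 18 of them were lower in Stim1 cKO than in either control. Of 18 neuron and photoreceptor markers, 15 were tested. These summed to 2256, 339 and 269 CPM in the same order, with 13 higher than in either control. The photoreceptor genes Nrl, Prph2 and Gnat1 had 1102, 2509 and 4294 counts in Stim1 cKO and 2 to 5 counts in the controls. The 9 salivary and lacrimal gland markers tested summed to 1593, 684 and 170.3 CPM, with 6 of them higher than in either control. The 15 bone, cartilage and fibroblast markers summed to 37477, 50947 and 78075 CPM, with 11 of them lower. Of the 14 ameloblast and enamel organ markers, 6 were higher and 7 lower than in either control, with a median log2 fold change of -0.0094. Their sum of 7274, 33508 and 25121 CPM was carried by matrix genes such as Amelx, at 2064, 20009 and 14082 CPM.

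Of the 9 genes, 7 were lower in Stim1 cKO than in either control, 1 (Micu3) was higher than in both and 1 (Smdt1) lay between them. Over the 18702 genes tested, 42.1% were lower than in both controls and 43.6% were higher. The median log2 fold change of the 9 genes was -0.54, against -0.01 over all genes tested. Micu3 and Vdac1 stood farthest from the controls, in opposite directions. With 1 bulk library per genotype, fewer cells of a type and less RNA per cell cannot be told apart.

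Stim1 cKO was tested against Stim1 HT and Stim1 Ctrl taken as one control group, with edgeR's quasi-likelihood test and Benjamini-Hochberg adjustment over all genes tested. Its estimate of spread rests on the control libraries alone, and these differ in genotype. At an adjusted p under 0.01 and a fold change over 2, edgeR called 0 of the 9 genes, and 0.0749% of all genes tested. Before adjustment, Micu3, Vdac1 and Mcu, 3 of the 9, had p under 0.05, as had 31.9% of all genes. At an adjusted p under 0.05 and the same fold, edgeR called Micu3 alone, against 9.68% of all genes. DESeq2, the test that the study names, called 2 of the 9 at the thresholds of the study, Micu3 as higher and Vdac1 as lower. It called 10.6% of all genes tested, 5.92% as higher and 4.71% as lower. Stim1 itself, named as a check of the labels, had a log2 fold change of -1.11 (edgeR) and was called by neither test at these thresholds.

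**Figure D1:**
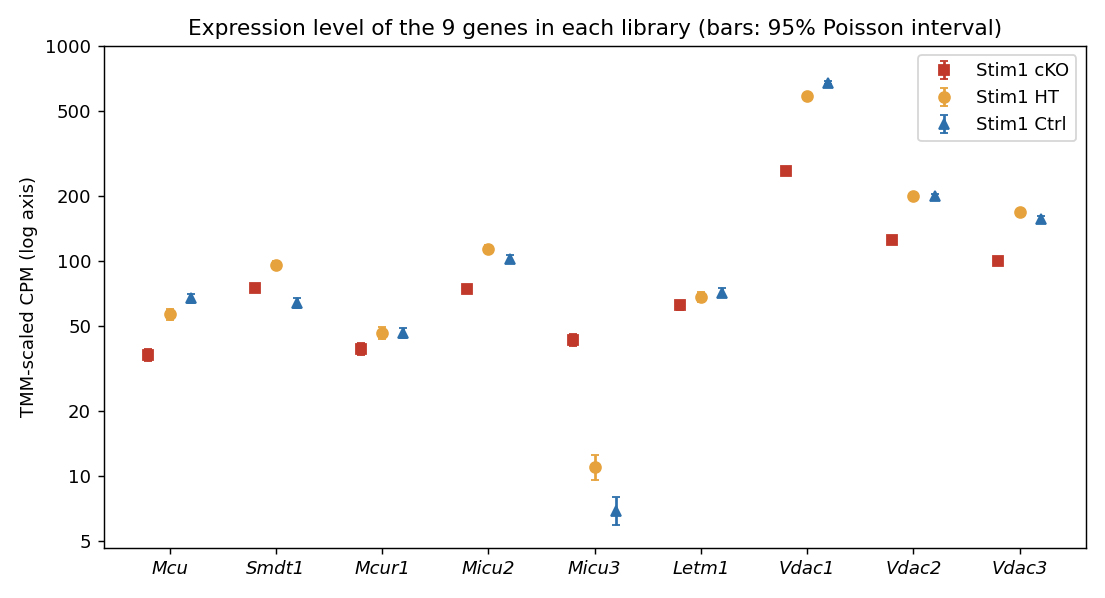
TMM-scaled CPM of the 9 genes (log axis) in the Stim1 cKO (squares), Stim1 HT (circles) and Stim1 Ctrl (triangles) libraries, 1 library each; bars are 95% Poisson intervals and cover counting error only. Vdac1 lies at 262 CPM in Stim1 cKO below 583 and 673 CPM in the controls, while Micu3 lies at 43.1 CPM above 11.01 and 6.88 CPM.

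Micu3 encodes an EF-hand regulator of the uniporter, a paralog of MICU2 best known from the nervous system and skeletal muscle. It lies on chromosome 8 from 40307458 to 40386308 (GENCODE M21 on GRCm38, as for all positions here) and had 1043 counts in Stim1 cKO against 217 (Stim1 HT) and 177 (Stim1 Ctrl). These counts equal 43.1 CPM (95% Poisson interval 40.5 to 45.8), 11.01 CPM (9.60 to 12.6) and 6.88 CPM (5.90 to 7.97). Stim1 cKO was thus 3.91-fold above Stim1 HT and 6.26-fold above Stim1 Ctrl, and Stim1 HT was 1.60-fold above Stim1 Ctrl. The counting intervals of the 3 libraries did not overlap.

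The log2 fold change of Micu3 against both controls was 2.27 (standard error 0.362), and edgeR gave it an adjusted p of 0.0303. It stood at percentile 90.6 of all genes tested, so 9.44% of them had a fold change at least as high. DESeq2 gave a log2 fold change of 2.27 (standard error 0.506) and an adjusted p of 0.000136. Over the 11 alternatives run for each gene, the log2 fold change of Micu3 lay between 1.97 and 2.65. Exons of Micu3 overlap Fgf20 and Mir7666 on the opposite strand, but these had at most 21 counts in a library.

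Most markers of neurons moved with Micu3. The 10 neuron markers other than those of photoreceptors summed to 1327 CPM in Stim1 cKO against 337 CPM (Stim1 HT) and 268 CPM (Stim1 Ctrl), which is 3.94-fold and 4.95-fold higher in Stim1 cKO. Of these 10 genes, 8 were higher than in either control, Nefl (log2 fold change 0.19) lay between them and Nefm (-0.46) was lower than in both. The photoreceptor markers Gnat1, Sag, Prph2 and Nrl, 4 genes summed, rose from 1.57 CPM (Stim1 HT) and 0.816 CPM (Stim1 Ctrl) to 435 CPM, and each was called by DESeq2. Snap25, of the synaptic release machinery, was at 121 CPM in Stim1 cKO against 16.9 CPM (Stim1 HT) and 6.80 CPM (Stim1 Ctrl). Aqp5, a water channel of gland acini, followed the same order at 77.3, 18.4 and 8.62 CPM. It was among the 6 of 9 gland markers tested that were higher in Stim1 cKO than in either control. Of the others, Bpifa2 (-2.85) was lower than in both, and Dcpp1 and Dcpp2 lay between them. Of the 14 enamel organ markers, Odam (2.35) and Slc24a4 (1.71) were among the 6 higher in Stim1 cKO, while Amelx (-3.05) and Ambn (-2.83) were among the 7 lower. The part of neuronal, retinal or gland RNA in the level of Micu3 was not tested.

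Micu2 encodes a gatekeeper of the uniporter, and lies on chromosome 14 from 57916261 to 57999262. Its level was 74.1 CPM in Stim1 cKO against 113 CPM (Stim1 HT) and 102 CPM (Stim1 Ctrl). The control libraries lay nearer to each other, at a log2 ratio of 0.15, than to Stim1 cKO. The log2 fold change was -0.54 (standard error 0.265). Adjusted p was 0.226 (edgeR) and 0.277 (DESeq2). Micu2 thus stood lower in Stim1 cKO than in either control, and Micu3 higher.

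The share of Micu3 in the sum of Micu2 and Micu3 does not depend on the scaling between libraries. Divided by exon length, Micu3 made up 22.6% of this sum in Stim1 cKO against 4.64% (Stim1 HT) and 3.26% (Stim1 Ctrl). Without division by length, Micu3 took 36.8% of the counts of the pair in Stim1 cKO (95% Wilson interval 35.0 to 38.5), against 8.85% (7.79 to 10.04) in Stim1 HT and 6.29% (5.46 to 7.25) in Stim1 Ctrl. Micu2 remained the more abundant of the pair in each library on either scale. The summed level per kb of the pair in Stim1 cKO was 0.805 of that in Stim1 HT and 0.905 of that in Stim1 Ctrl, while Micu2 alone stood at 0.654 and 0.724.

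**Figure D2:**
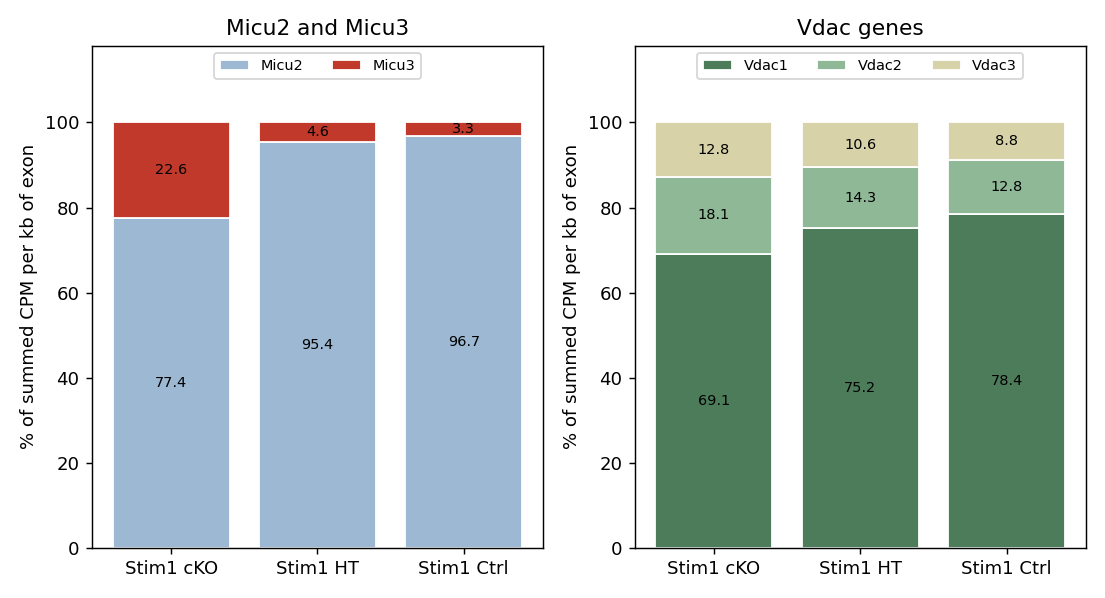
Stacked bars of the share of each gene in the summed CPM per kb of exon of Micu2 and Micu3 (left) and of the Vdac genes (right) in each of the 3 libraries. The Micu3 share is 22.6% in Stim1 cKO against 4.64% and 3.26% in the controls, and the Vdac1 share is 69.1% against 75.2% and 78.4%.

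Mcu encodes the pore of the uniporter and lies on chromosome 10 from 59446984 to 59616692. Its reads came to 888 counts in Stim1 cKO against 1115 (Stim1 HT) and 1725 (Stim1 Ctrl), which equal 36.7, 56.6 and 67.0 CPM. The level in Stim1 cKO was 0.648 of that in Stim1 HT and 0.547 of that in Stim1 Ctrl. The control libraries differed by a log2 ratio of -0.24, less than either did from Stim1 cKO. Against both controls the log2 fold change of Mcu was -0.75 (standard error 0.262). In edgeR's test p was 0.0338 before and 0.127 after adjustment, which did not pass the threshold. Its pore paralog Mcub was at 3.63 CPM in Stim1 cKO against 6.09 CPM (Stim1 HT) and 4.62 CPM (Stim1 Ctrl). The exons of Mcub are shorter, and per kb of exon its level was 0.52, 0.57 and 0.36 of that of Mcu in the same order.

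Smdt1 encodes EMRE, the small subunit that holds MCU and the MICU proteins together, and lies on chromosome 15 from 82338959 to 82349091. Its level was 74.9 CPM in Stim1 cKO against 95.9 CPM (Stim1 HT) and 63.9 CPM (Stim1 Ctrl). Stim1 cKO lay between the controls, and the largest gap was that of Stim1 HT over Stim1 Ctrl, at a log2 ratio of 0.59. The log2 fold change was -0.09 (standard error 0.334, adjusted p = 0.864, edgeR), and it turned to 0.23 against Stim1 Ctrl alone. Exons of Smdt1 overlap Pheta2 on the same strand, which had 183, 457 and 671 counts beside 1813, 1890 and 1644 of Smdt1 in Stim1 cKO, Stim1 HT and Stim1 Ctrl.

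Per kb of exon, the level of Smdt1 was 9.57 times that of Mcu in Stim1 cKO against 7.95 times (Stim1 HT) and 4.47 times (Stim1 Ctrl). The interval from counting error was 8.83 to 10.4 for Stim1 cKO, 7.38 to 8.57 for Stim1 HT and 4.17 to 4.78 for Stim1 Ctrl. The gap between the control libraries in this ratio was larger than that between Stim1 cKO and Stim1 HT. Micu2 per Mcu was 4.55 in Stim1 cKO, close to 4.51 in Stim1 HT and above 3.44 in Stim1 Ctrl, whereas Micu3 per Mcu was 1.32 in Stim1 cKO against 0.219 (Stim1 HT) and 0.116 (Stim1 Ctrl). Micu3 thus exceeded Mcu per kb in Stim1 cKO and was well below it in both controls.

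Mcur1 encodes a coiled-coil protein of the inner membrane that binds MCU, and lies on chromosome 13 from 43538393 to 43560191. It was at 38.9 CPM in Stim1 cKO against 46.3 CPM (Stim1 HT) and 46.4 CPM (Stim1 Ctrl). The control levels were nearly equal. The log2 fold change of Mcur1 was -0.25 (standard error 0.233, adjusted p = 0.486, edgeR). Letm1 encodes an inner membrane protein of cation and proton exchange, and lies on chromosome 5 from 33739673 to 33782817. It was at 62.3 CPM in Stim1 cKO against 68.1 CPM (Stim1 HT) and 71.2 CPM (Stim1 Ctrl), the smallest spread among the 9 genes in fold terms. Its log2 fold change was -0.16 (standard error 0.245, adjusted p = 0.678, edgeR). With scaling by library size only, the values of Mcur1 and Letm1 turned to 0.0034 and 0.097. The median of all genes then stood at 0.25, above both.

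**Figure D3:**
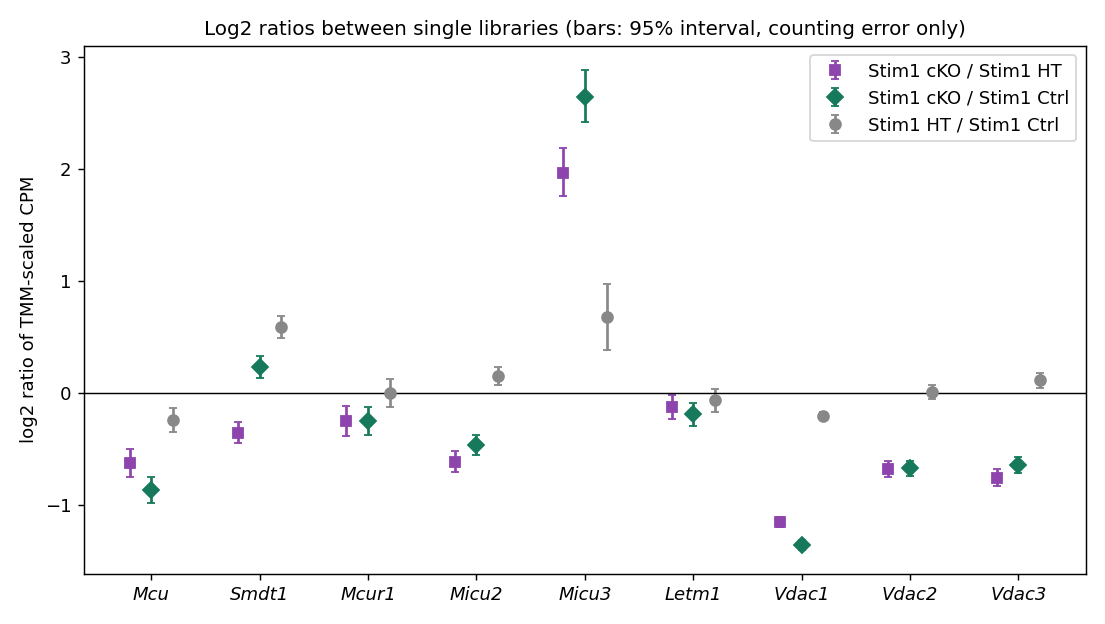
Log2 ratios of TMM-scaled CPM of the 9 genes between Stim1 cKO and Stim1 HT (squares), Stim1 cKO and Stim1 Ctrl (diamonds) and Stim1 HT and Stim1 Ctrl (circles); bars are 95% intervals from counting error, and the first pair of ratios shares the Stim1 cKO library. Micu3 is the one gene far above 0, at 1.97 and 2.65, and Vdac1 is the lowest, at -1.15 and -1.36.

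The VDAC genes encode the channels through which metabolites and calcium pass the outer membrane. Vdac1, the isoform linked to the IP3 receptor through GRP75, lies on chromosome 11 from 52360860 to 52389397. Its reads came to 6354 counts in Stim1 cKO against 11480 (Stim1 HT) and 17333 (Stim1 Ctrl), which equal 262, 583 and 673 CPM. Stim1 cKO held 0.450 of the Stim1 HT level and 0.390 of the Stim1 Ctrl level, while the control libraries differed by a log2 ratio of -0.21. The log2 fold change of Vdac1 was -1.26 (standard error 0.347), at percentile 7.52 of all genes tested. Adjusted p was 0.0826 by edgeR, above the threshold, and 0.000611 by DESeq2.

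Vdac2, the isoform that holds the apoptosis effector BAK at the outer membrane, lies on chromosome 14 from 21825238 to 21845879 and was at 125 CPM in Stim1 cKO against 201 CPM (Stim1 HT) and 200.2 CPM (Stim1 Ctrl). Vdac3, on chromosome 8 from 22577075 to 22593813, was at 100.3 CPM, 169.6 CPM and 157 CPM in the same order. For both genes the control libraries lay close together and Stim1 cKO lay below them. The log2 fold change was -0.68 for Vdac2 (standard error 0.283, adjusted p = 0.175, edgeR) and -0.70 for Vdac3 (standard error 0.278, adjusted p = 0.160, edgeR). Exons of Vdac2 overlap Comtd1 on the opposite strand, which had at most 144 counts in a library. The pseudogene Vdac3-ps1 had 17 to 32 counts, and reads of near-identical copies could have been split by the counting.

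Vdac1 was the most abundant of the 9 genes per kb of exon in every library, at 100.2 CPM per kb in Stim1 cKO against 222 (Stim1 HT) and 257 (Stim1 Ctrl). Its share of the summed Vdac level per kb was 69.1% in Stim1 cKO against 75.2% (Stim1 HT) and 78.4% (Stim1 Ctrl). Without division by length, Vdac1 took 53.8%, 61.1% and 65.4% of the Vdac counts in the same order. Per kb, the share of Vdac2 was 18.1%, 14.3% and 12.8%, and that of Vdac3 was 12.8%, 10.6% and 8.82%. The summed Vdac level per kb in Stim1 cKO was 0.490 of that in Stim1 HT and 0.442 of that in Stim1 Ctrl. The 3 listed genes with the pattern nearest to Vdac1 were, in order, Slc25a24, Dlst and Slc25a4, the last being the adenine nucleotide carrier of muscle and heart. Of the 21 skeletal muscle markers, 18 were lower in Stim1 cKO than in either control, 2 were higher and 1 lay between them. Their median log2 fold change was -2.44. The part of muscle RNA in the level of Vdac1 was not tested.

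Per kb of exon, the order of the 9 genes was the same in both controls, from Vdac1 through Smdt1, Vdac2, Micu2, Vdac3, Mcu, Letm1 and Mcur1 down to Micu3. In Stim1 cKO, Micu3 moved from rank 9 to rank 6, at 7.0 CPM per kb, and Mcu moved from rank 6 to rank 9, at 5.29 CPM per kb. Letm1, Mcur1 and Mcu lay close together there, at 6.46, 5.49 and 5.29 CPM per kb, and the counting interval of Mcur1 per Mcu, 0.947 to 1.14, includes equal levels. Smdt1 and Vdac2 also lay close in Stim1 Ctrl, at 43.2 and 41.97 CPM per kb. The lengths are those of all annotated exons, so isoform use could shift this order.

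Promoters are shown for Mcu and Vdac1, which were lower in Stim1 cKO than in either control, and for Smdt1, which lay between them. The log2 fold changes of Mcu, Smdt1 and Vdac1 were all negative, at -0.75, -0.09 and -1.26 (edgeR). In B cells, calcium entering through store-operated channels is known to act on Mcu expression through the factor CREB. The 250 bases before the RefSeq start of each gene (GRCm38.p6) were searched on both strands for the CREB site TGACGTCA, its core TGACG, the AP-1 site TGANTCA, the SP1 site GGGCGG and the ETS site CCGGAAG. Capitals mark every match, and TGACG lies within TGACGTCA. A window was found for 6 of the 9 genes, which leaves out Micu3, Vdac2 and Vdac3. The windows are chr10:59616693-59616942 on the minus strand for Mcu, chr15:82345796-82346045 on the plus strand for Smdt1 and chr11:52360601-52360850 on the plus strand for the first of the Vdac1 starts.
Mcu: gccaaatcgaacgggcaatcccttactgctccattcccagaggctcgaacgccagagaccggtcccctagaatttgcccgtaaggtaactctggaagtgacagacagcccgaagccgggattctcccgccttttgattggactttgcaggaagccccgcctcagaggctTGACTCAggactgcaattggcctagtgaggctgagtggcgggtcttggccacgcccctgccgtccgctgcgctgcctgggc
Smdt1: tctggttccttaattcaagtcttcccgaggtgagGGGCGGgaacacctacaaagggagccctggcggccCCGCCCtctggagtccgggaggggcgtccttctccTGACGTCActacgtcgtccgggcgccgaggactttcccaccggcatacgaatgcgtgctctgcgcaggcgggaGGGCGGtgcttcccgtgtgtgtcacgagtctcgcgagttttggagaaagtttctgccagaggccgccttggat
Vdac1: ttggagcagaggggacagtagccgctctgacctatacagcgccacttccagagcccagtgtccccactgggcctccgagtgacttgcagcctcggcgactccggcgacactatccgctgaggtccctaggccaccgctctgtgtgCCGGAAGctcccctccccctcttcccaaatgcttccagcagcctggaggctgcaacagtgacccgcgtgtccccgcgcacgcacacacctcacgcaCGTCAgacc

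The Smdt1 window held the whole CREB site, which 1.55% of 32851 promoter windows hold, and 3 SP1 sites. The Vdac1 window held 1 CREB core, found in 17.8% of all windows, and 1 ETS site, found in 6.91%. The window of the other Vdac1 start, chr11:52361347-52361596 on the plus strand, held neither of these and 3 SP1 sites. The Mcu window held none of the CREB letters and 1 AP-1 site, found in 6.75% of all windows. An SP1 site stands in 32.7% of all windows. These matches describe letters in the windows only.

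Other genes of the pathway were taken from lists that name the rest of the uniporter and exchange genes and their partners. Over all genes tested, 42.1% were lower in Stim1 cKO than in either control, 43.6% were higher and 14.3% lay between them. Of 18 further uniporter, protease and carrier genes, 15 were lower in Stim1 cKO than in either control and 3 were higher, with a median log2 fold change of -0.42. edgeR called 0 of them at an adjusted p under 0.01, and DESeq2 called 3 of the 18, against 10.6% of all genes tested. In edgeR, 5 of the 18 reached an unadjusted p under 0.05, against 31.9% of all genes tested. Ucp3, a carrier of muscle and brown fat mitochondria, fell from 23.2 CPM (Stim1 HT) and 41.8 CPM (Stim1 Ctrl) to 3.55 CPM, or -3.19 on the log2 scale (adjusted p = 0.0295, edgeR). DESeq2 also called a pair of paralogous calcium-regulated ATP-Mg/phosphate carriers, which stood in opposite directions. Slc25a23 rose from 31.4 CPM (Stim1 HT) and 28.0 CPM (Stim1 Ctrl) to 70.7 CPM, at a log2 fold change of 1.25 (adjusted p = 0.00735, DESeq2). Slc25a24 fell from 57.0 and 74.8 CPM to 27.3 CPM, at -1.27 (adjusted p = 0.00947, DESeq2). Slc8b1, the mitochondrial sodium-calcium exchanger NCLX, was at 20.5, 23.9 and 24.4 CPM in Stim1 cKO, Stim1 HT and Stim1 Ctrl, a log2 fold change of -0.23.

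Among 15 genes of contact between the endoplasmic reticulum and mitochondria, 9 were lower in Stim1 cKO than in either control, 5 lay between them and 1 was higher. Hspa9, which encodes GRP75, was at 208 CPM in Stim1 cKO against 395 CPM (Stim1 HT) and 437 CPM (Stim1 Ctrl), a log2 fold change of -1.0. It was the 1 gene of the 15 called by DESeq2 (adjusted p = 0.00860), against 10.6% of all genes tested. It thus stood low beside its partner Vdac1. Itpr2, an IP3 receptor gene, was the highest of the list at 84.2, 38.6 and 38.6 CPM in the same order, or 1.13 on the log2 scale of the fold change (adjusted p = 0.0465, edgeR). Itpr1 and Itpr3 had log2 fold changes of -0.18 and -0.09.

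Of 10 VDAC partner genes, 5 were higher in Stim1 cKO than in either control and 4 were lower, with a median log2 fold change of 0.05. These counts lay near the shares over all genes tested, 43.6% higher and 42.1% lower. Bcl2, the apoptosis inhibitor, was the highest at 1.09, with 72.3 CPM in Stim1 cKO against 31.1 CPM (Stim1 HT) and 36.8 CPM (Stim1 Ctrl) (adjusted p = 0.0546, edgeR). Slc25a4 was the lowest at -1.33, with 455 CPM against 1109 and 1184 CPM. It was the 1 gene of the 10 called by DESeq2, against 10.6% of all genes tested. Of 14 genes of calcium-sensitive matrix metabolism, 12 were lower than in both controls and 2 were higher, and the median log2 fold change was -0.78. DESeq2 called 4 of these 14 as lower, against 4.71% of all genes tested, and edgeR called 0. In edgeR, 8 of the 14 reached an unadjusted p under 0.05, against 31.9% of all genes tested. The 4 called genes were the isocitrate dehydrogenase subunit genes Idh3a (-1.10) and Idh3g (-1.12) and the oxoglutarate dehydrogenase genes Dlst (-1.30) and Dld (-1.08). Pdp2, a phosphatase of pyruvate dehydrogenase, was the highest at 0.91 (adjusted p = 0.226, edgeR). Pdp1, the calcium-activated phosphatase of the same enzyme, had a log2 fold change of -0.16.

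**Figure D4:**
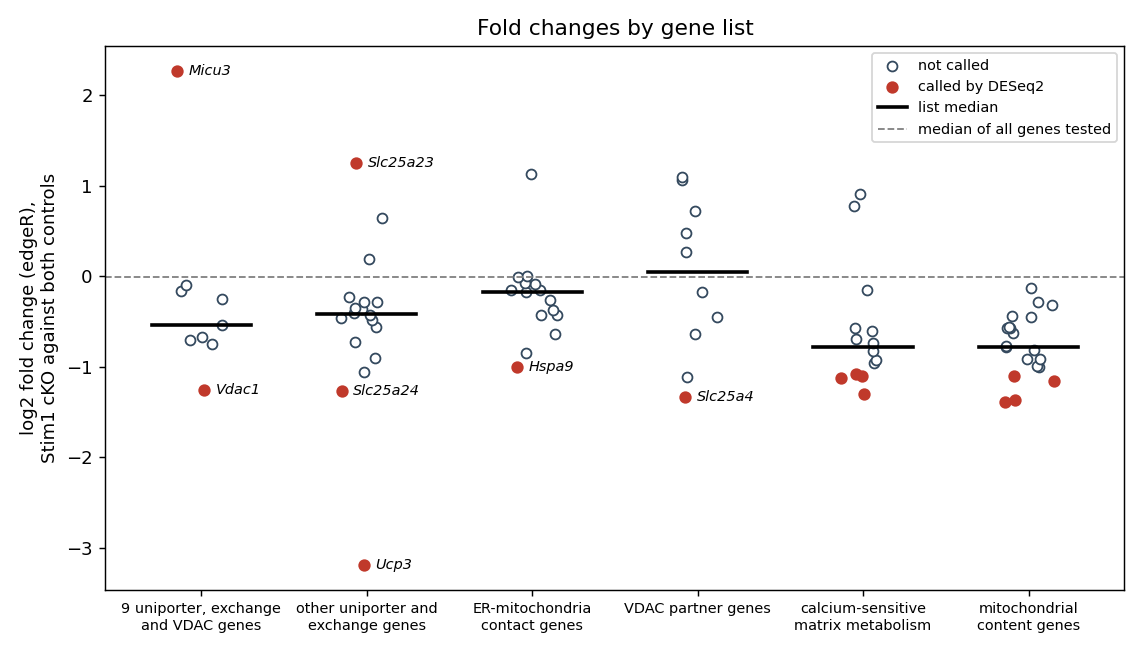
Log2 fold change of Stim1 cKO against both controls (edgeR) for each gene of the 9 uniporter, exchange and VDAC genes and of 5 further lists; filled points were called by DESeq2, black lines are list medians and the dashed line is the median of all genes tested, -0.01. The 9 genes have a median of -0.54, between that of the other uniporter genes (-0.42) and that of the mitochondrial content genes (-0.78).

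The level of nuclear transcripts for mitochondria was described with 20 genes of general mitochondrial proteins, such as citrate synthase and the import machinery. All 20 had a negative log2 fold change, from -1.39 for Cs to -0.13 for Hspe1, and 19 were lower in Stim1 cKO than in either control. Their median was -0.78. DESeq2 called 4 of the 20 as lower, among which were Cs, Hspd1 and Chchd3, against 4.71% of all genes tested. Of the 9 genes, 7 had a fold change within the range of these 20 genes. The exceptions were Micu3 and Smdt1, which lay above it. Relative to the median of the 20 genes, Mcu stood at 0.03, Vdac2 at 0.10, Vdac3 at 0.08, Micu2 at 0.24 and Vdac1 at -0.48 on the log2 scale. Mcur1 at 0.53, Letm1 at 0.62 and Smdt1 at 0.69 stood farther above it, and Micu3 at 3.05.

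Transcripts encoded in the mitochondrial genome stood the other way. Of the 20 tested, 17 were higher in Stim1 cKO than in either control, 2 lay between them and 1 was lower, with a median log2 fold change of 1.82. DESeq2 called 10 of the 20 as higher and 0 as lower, against 5.92% and 4.71% of all genes tested. The complex I subunit genes mt-Nd1 and mt-Nd4 had log2 fold changes of 0.99 and 1.34, the ribosomal RNA mt-Rnr2 2.33, and mt-Co1, a subunit of cytochrome c oxidase and the 1 gene lower than in both, -0.16. The median was thus taken over messenger and ribosomal RNA together, and the subunit genes named here lay below it. In DESeq2, mt-Nd1 had a log2 fold change of 0.986, under the fold threshold, and was not called. The 9 genes and the 20 general mitochondrial genes are all encoded in the nucleus.

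The genes of these lists whose pair of log2 ratios lay nearest to that of Mcu were Lonp1, Immt and Ogdh, at Euclidean distances of 0.031, 0.079 and 0.13 among 85 candidates. Lonp1 is a matrix protease, Immt a protein of the cristae and Ogdh a dehydrogenase of the citric acid cycle. Slc25a24, Dlst and Slc25a4 lay nearest to Vdac1, at distances of 0.13 each. For Micu3, added after its values were seen, the nearest gene was Slc25a23, at a distance of 1.53. These distances rest on 3 libraries and describe their pattern only.

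**Figure D5:**
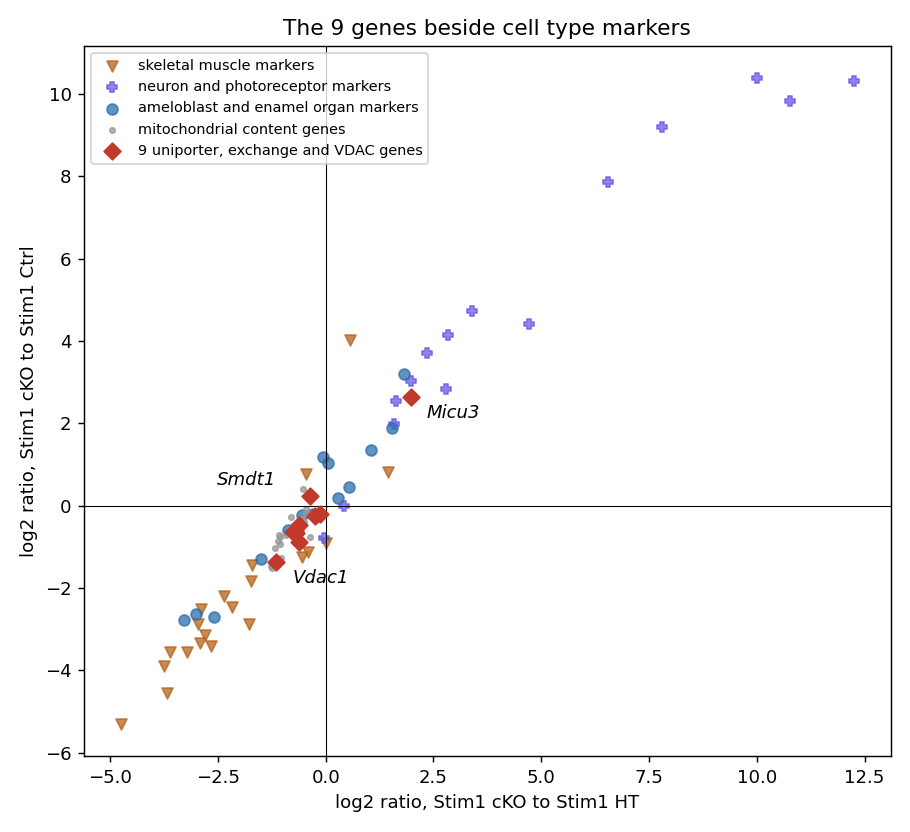
Log2 ratio of Stim1 cKO to Stim1 HT (horizontal) and to Stim1 Ctrl (vertical) for the 9 genes (diamonds) beside markers of skeletal muscle, of neurons and photoreceptors, of ameloblasts and the enamel organ, and the mitochondrial content genes; both axes share the Stim1 cKO library. Micu3 (1.97 and 2.65) lies among the neuron markers and near some enamel organ markers, while Vdac1 (-1.15 and -1.36) lies among the mitochondrial content genes.

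The gap between the control libraries was narrower than the gap from either to Stim1 cKO for 8 of the 9 genes, all but Smdt1, against 59% of all genes tested. Between these libraries the log2 ratio (Stim1 HT over Stim1 Ctrl) had a median of 0.01 over the 9 genes and was at most 0.68, that of Micu3. None of the 9 exceeded 2-fold, against 13.5% of all genes tested. These are values of single libraries, with no test.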

How the data were processed

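Polyadenylated RNA of 3 enamel organ libraries was sequenced as paired-end reads. After trimming, the authors aligned reads with STAR and deposited unnormalized counts for each gene symbol. The genome build, annotation, counting tool and strand setting are not given in the sources used here. The labels name a SMARTER kit and the methods a directional NEBNext kit. The table holds 20937 symbols with at least 1 count in each library, so genes at 0 in a library cannot be examined, and 25 symbols had become dates. Total counts per library were 21496136 (Stim1 cKO), 20216507 (Stim1 HT) and 28265960 (Stim1 Ctrl).

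Stim1 cKO was tested against both controls with edgeR 4.0.16 in R 4.3.3 (TMM, filterByExpr with 18702 genes kept, quasi-likelihood test, Benjamini-Hochberg adjustment). The residual degrees of freedom were 1, and the prior degrees of freedom, which the test draws from the spread over all genes, had a median of 4.15. The standard error was taken as the log2 fold change divided by the root of the F statistic. DESeq2 1.42.0 was the alternative test. Other alternatives were RLE, upper-quartile and library size scaling, scaling without mitochondrially encoded, enamel matrix or muscle genes, other filters, an adjusted p under 0.05, and leaving out either control. Ratios between libraries used TMM-scaled CPM. Family shares and subunit ratios were also taken without division by exon length. Poisson, binomial and Wilson intervals (95%) cover counting error only. Positions and exon lengths were taken from GENCODE M21 on GRCm38, and promoters from RefSeq (GRCm38.p6). Figures were drawn with matplotlib 3.10.9 in Python 3.11.15.

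The members and the gene lists were chosen with earlier results of these data known. The genes named beside the members were, in each list, those called by either test (1 of which is not reported here) and the highest and lowest fold changes at a mean of at least 50 counts, and the 3 genes nearest to Mcu and to Vdac1. Stim1 was named as a check of the labels. Mcub, Slc8b1, Itpr1, Itpr3, Pdp1, the genes overlapping the members, the mitochondrially encoded genes, Xist, the Y-linked genes and the single markers were named outside this rule, after their values were seen.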

Additional observations from a re-analysis of the deposited data

How the results depend on the processing

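edgeR called 14 genes over all genes, and the number moved to 50 with RLE scaling, 138 with upper-quartile scaling, 6 with library size only, 487 with no filter, 7 at a mean of at least 50 counts, 1811 at an adjusted p under 0.05 and 1987 with DESeq2. Of the 9 members, 0 were called, 2 with DESeq2 and 1 at an adjusted p under 0.05. The median log2 fold change of the members, -0.54, was -0.42 with upper-quartile scaling and -0.29 with library size only, between -0.61 and -0.47 when either control was left out, and 0.24 relative to the mitochondrial content genes, where its direction turned. Mcu, Micu2, Micu3, Vdac1, Vdac2 and Vdac3 kept their direction under each of 11 alternatives. Smdt1 turned to 0.025 with upper-quartile scaling, 0.15 with library size only, and ranged from -0.36 to 0.23 when either control was left out. With library size only, which moved the median of all genes to 0.25, Mcur1 turned to 0.0034 and Letm1 to 0.097. Between single libraries, the same scaling turned the log2 ratio of Letm1 to 0.081 (Stim1 cKO to Stim1 HT), 0.11 (Stim1 cKO to Stim1 Ctrl) and 0.033 (Stim1 HT to Stim1 Ctrl), and that of Mcur1 to 0.051 (Stim1 cKO to Stim1 Ctrl) and 0.095 (Stim1 HT to Stim1 Ctrl). RLE scaling turned the log2 ratio of Vdac2 between Stim1 HT and Stim1 Ctrl to -0.026. A change of scaling moves the log2 ratio between a pair of libraries by the same amount for every gene. The cause of the other shifts was not tested. Without division by exon length, all 15 family shares and 22 of the subunit ratios moved beyond counting error, while 5 ratios did not. No paired analysis was possible because each genotype has 1 library. Values without a control library carry no test, since no residual degrees of freedom remain, and no value has a replicate check.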
